A study of Homo sapiens with 24 samples.

Results

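RNA levels of 10 genes of the NF-kB pathway, chosen by name from a table of 14114 genes, are described: the subunit genes NFKB1, NFKB2, REL and RELB, the feedback genes NFKBIA, NFKBIE and TNFAIP3, and the cytokine genes LIF, IL6 and CXCL8. All 10 named genes are in the table. Their RNA was measured in 3 established human breast cancer cell lines, namely MDA-MB-157, then MDA-MB-231, and last MDA-MB-468, each labelled basal, negative for ERα and PR and without overexpressed HER2. Cultures of each line were exposed for 3 h to DMSO (0.05% v/v), to thalidomide at 1000 nM, to BETi-211 (1000 nM), a BET inhibitor, or to BETd-246 (100 nM), a BET degrader. There are 12 groups of a line with a treatment and 2 libraries in each, 24 in all. The series design takes DMSO as well as thalidomide as control, so every line has 4 control libraries. Each line is a single culture-adapted tumour, only 1 time was sampled, and the compounds were given at different doses. Sets of 3 values below follow the order MDA-MB-157, MDA-MB-231, MDA-MB-468.

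NF-kB is a family of paired transcription factors that wait in the cytoplasm bound to IkB proteins. Signals from cytokine and innate immune receptors activate IkB kinases, IkB is degraded, and the freed pairs enter the nucleus and switch on target genes. Among these targets are their own inhibitors, which close the loop, and inflammatory cytokines such as IL-6 and IL-8, which basal breast cancer cells are known to secrete. BET proteins are bromodomain proteins that bind acetylated chromatin and help RNA polymerase II to elongate, and one of them is known to bind an acetylated NF-kB subunit.

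Levels are FPKM, a fragment count corrected for transcript length and for library size, so that genes of different length can be set side by side. Changes are differences in log2(FPKM + 1), with a standard error (SE) from one limma fit to all 24 libraries, and a gene was called at an adjusted p below 0.05 over the 14114 genes. The added 1 compresses changes of genes at low levels, so the ratio of mean FPKM is given beside them. In bulk cultures, fewer cells that express a gene and less RNA per cell cannot be told apart. KRT8 and KRT18 were present in every library (lowest value 148 FPKM), EPCAM and CDH1 were high only in MDA-MB-468 (145 to 176 and 36.4 to 48.4 FPKM), and VIM was high in the other lines. The basal keratins KRT5, KRT14 and KRT17 were also high only in MDA-MB-468 (698.5 to 876, 22.8 to 29.2 and 920 to 1310 FPKM). They stayed at or below 0.69 FPKM in the other lines, although every line is labelled basal. KRT7 and KRT19 were at most 0.51 and 0.0946 FPKM in MDA-MB-157. ESR1, PGR and PTPRC are not in the table, and of 7 leukocyte markers only CD14 and CSF1R are. ERBB2, the gene of HER2, was measured at 7.17 to 19.5 FPKM over all libraries. MDA-MB-157 also held CD14 (50.9 to 68.1 FPKM) and the collagen gene COL3A1 (342 to 421 FPKM) in all 8 of its libraries. FPKM sums were 454289 to 534179, and the libraries of a group correlated at 0.992 to 0.998 over genes. The median gene's level was 9.80 to 10.03, 8.57 to 8.77 and 9.69 to 10.06 FPKM in the controls. It lay below these with both compounds in every line, at 9.03 to 9.15, 7.84 to 7.97 and 8.72 to 8.73 FPKM with BETi-211 and at 8.41 to 8.56, 6.997 to 7.029 and 7.89 to 7.94 FPKM with BETd-246. The mitochondrial share of the FPKM sum was 8.02% to 10.42%, 9.79% to 13.99% and 7.19% to 8.33% in the controls. It was 10.76% to 12.09%, 13.4% to 14.28% and 8.44% to 8.93% with BETi-211, above all controls outside MDA-MB-231, and 9.66% to 11.98%, 14.9% to 15.1% and 9.55% to 9.74% with BETd-246, above all controls outside MDA-MB-157. The part of these shifts in the results below was not tested.

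RefSeq promoters (GRCh38.p14, 250 bases before to 50 after a start) were at hand for 7 of the 10 genes, with 10 starts in all; LIF, RELB and NFKBIE had no entry. The kB consensus, a motif of 10 bases that NF-kB pairs bind, was searched by name on both strands, and 7 of the 10 promoters held it, against 11.3% of 35116 promoters of the same length. A match is a description of letters and not a measured site. The matches of NFKB1, NFKB2, REL, NFKBIA, TNFAIP3 and IL6 are shown because these genes shared the motif yet moved differently in the data. They are printed 5′ to 3′ on the gene's strand, with the match in capitals and 10 bases on each side.
NFKB1 (chr4:102501300-102501329, forward strand): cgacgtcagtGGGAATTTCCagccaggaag
NFKB2 (chr10:102394461-102394490, forward strand): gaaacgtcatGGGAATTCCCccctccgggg
REL (chr2:60881517-60881546, forward strand): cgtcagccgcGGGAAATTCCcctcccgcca
NFKBIA (chr14:35404811-35404840, reverse strand): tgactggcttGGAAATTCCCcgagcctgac
TNFAIP3 (chr6:137867182-137867211, forward strand): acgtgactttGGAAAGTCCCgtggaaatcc
IL6 (chr7:22727117-22727146, forward strand): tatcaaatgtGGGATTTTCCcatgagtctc

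The shown matches begin 49, 107, 47, 81, 67 and 73 bases before the RefSeq start. In NFKB2 and REL a further match overlaps the one shown, shifted by a single base, and NFKB2 and TNFAIP3 hold others that are not shown. In the CXCL8 promoter the stretch tggaatttcc misses the consensus by its first base only, and near matches were not searched for in any promoter. This promoter held no exact match of the consensus. It held TGACTCA, the motif of AP-1 factors, 137 bases before the start, which 4.95% of all promoters hold, and the TATA motif TATAAA 31 bases before it, which 11.5% hold. They are shown with the same flanks.
CXCL8, AP-1 motif (chr4:73740422-73740448, forward strand): ggaagtgtgaTGACTCAggtttgccct
CXCL8, TATA motif (chr4:73740528-73740553, forward strand): agggtgatgaTATAAAaagccaccgg

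The first question was how the 10 genes stood in the control cultures. The lines differed widely, and each had its own profile. MDA-MB-231 was high in NFKB1, NFKB2, RELB and NFKBIE, MDA-MB-157 was high in NFKBIA, TNFAIP3 and IL6 but had little LIF, and MDA-MB-468 had much LIF but little IL6 and CXCL8. All 10 genes differed between MDA-MB-157 and MDA-MB-231, 9 when MDA-MB-157 was set against MDA-MB-468, and again 10 for MDA-MB-231 against MDA-MB-468. Of all genes, 87.4%, 88.0% and 86.2% were called in these comparisons, so these counts lie near the background.

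Of the subunits, NFKB1 stood at 9.72 ± 0.26, 28.1 ± 0.26 and 13.6 ± 0.62 FPKM (SD, n = 4). NFKB2 stood at 9.12 ± 0.79, 32.4 ± 1.04 and 16.7 ± 1.25 FPKM. Both share one order, with MDA-MB-231 highest and MDA-MB-157 lowest. RELB had the same order, at 3.36 ± 0.15, 11.9 ± 0.24 and 9.57 ± 1.13 FPKM. REL went the other way, at 6.28 ± 0.28, 3.57 ± 0.29 and 6.09 ± 0.17 FPKM. MDA-MB-157 did not differ from MDA-MB-468 in REL beyond their spread (difference 0.04, 95% interval -0.06 to 0.14, adjusted p = 0.443).

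NFKBIA, the most abundant of the 10 in every line but MDA-MB-231, stood at 45.1 ± 0.55, 28.4 ± 1.81 and 33.6 ± 1.19 FPKM. NFKBIE spanned the widest range of the feedback genes, at 4.42 ± 0.46, 32.2 ± 1.67 and 7.95 ± 0.44 FPKM. TNFAIP3 was low throughout, at 4.23 ± 0.17, 2.3 ± 0.25 and 2.83 ± 0.15 FPKM. NFKBIA and TNFAIP3 were thus highest in the line with the least NFKBIE. The place of MDA-MB-231 below MDA-MB-468 for TNFAIP3 (difference -0.22, adjusted p = 0.00162) turned to 0.04 with quantile normalization and was lost with DMSO alone as control (0.0752).

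LIF was at 0.406 ± 0.069 FPKM in MDA-MB-157 and at 11.6 ± 0.45 and 13.1 ± 1.11 FPKM in the other two lines. IL6 stood at 8.23 ± 1.02, 6.9 ± 0.51 and 1.5 ± 0.21 FPKM. CXCL8 stood at 8.21 ± 1.01, 10.4 ± 0.96 and 3.81 ± 0.16 FPKM. The low line was thus MDA-MB-157 for LIF and MDA-MB-468 for the other cytokines. Neighbours in these orders were close: the IL6 difference of MDA-MB-157 from MDA-MB-231 was 0.22 ± 0.08 (adjusted p = 0.0122), with overlapping libraries. It went to 0.00 with quantile normalization (adjusted p = 0.987) and to 0.08 with median-of-ratios scaling (0.338). It was also lost with a pseudocount of 0.1 (0.0785), with thalidomide alone as control (0.221) and without DMSO replicate 2 of either line (0.0642 and 0.0644). LIF of MDA-MB-231 differed from that of MDA-MB-468 by -0.16 ± 0.06 (adjusted p = 0.0113). This went to -0.05 with quantile normalization (adjusted p = 0.318) and to -0.06 with median-of-ratios scaling (0.334), and was lost with a pseudocount of 0.1 (0.184), with column-total scaling (0.113), with DMSO alone (0.11) and without MDA-MB-468 thalidomide replicate 2 (0.0687).

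**Figure D1:**
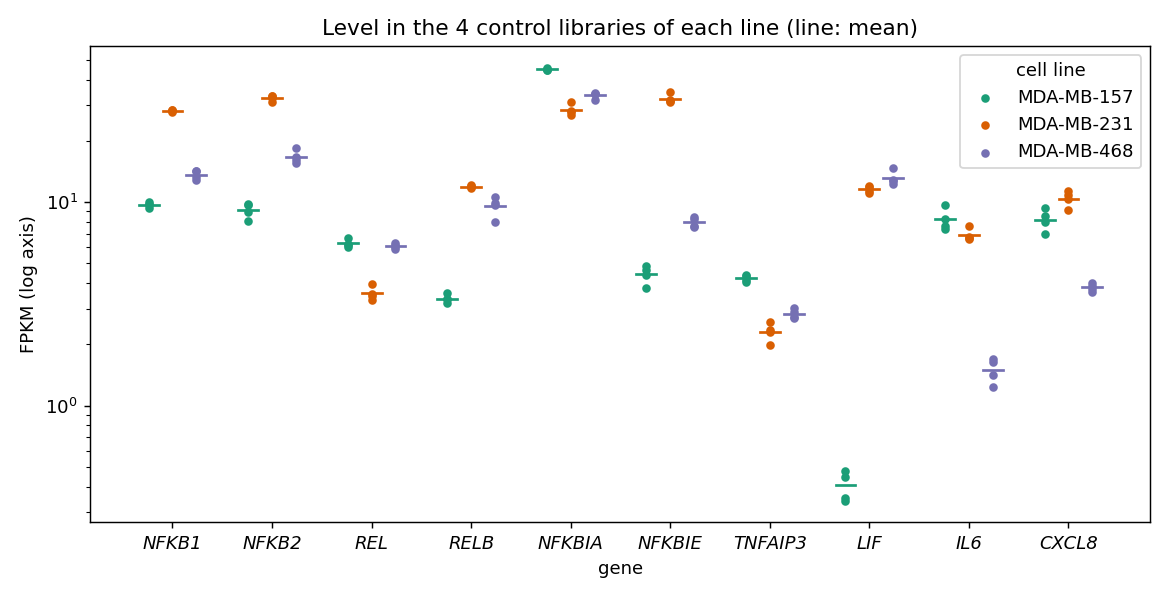
FPKM of the 10 genes (log axis) in the 4 control libraries of each line, DMSO and thalidomide together, with a line at the mean. LIF in MDA-MB-157 lies near 0.406 FPKM, far under the 11.6 and 13.1 FPKM of the other lines, while NFKBIA is at 26.8 FPKM or above in every control library.

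Thalidomide, the second control, was compared with DMSO in each line. None of the 10 genes was called by limma, and of all genes 0.184%, 0% and 0% were. At an unadjusted p below 0.05, the members numbered 2, 1 and 3, and all genes 2093, 766 and 1980. The largest differences were in MDA-MB-157: CXCL8 at 8.55 and 9.36 FPKM with DMSO and 7.96 and 6.96 with thalidomide (-0.23, 95% interval -0.37 to -0.10, adjusted p = 0.14), and IL6 at 8.28 and 9.64 against 7.35 and 7.64 FPKM (-0.23, interval -0.45 to 0.00, adjusted p = 0.337). For these genes the 2 kinds of control did not overlap in that line, and a miss of the threshold does not show that they were equal. In MDA-MB-468 the thalidomide libraries lay above the DMSO libraries for NFKB1, NFKB2, RELB, NFKBIA, NFKBIE, TNFAIP3 and LIF. How many of all genes split this way was not counted. The median difference of the 10 was -0.024, 0.038 and 0.097, beside -0.008, -0.002 and 0.011 over all genes. Without MDA-MB-157 DMSO replicate 1, 2 members were called in that line, and without MDA-MB-231 thalidomide replicate 2, 1 member was called in MDA-MB-231.

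The main question was what the BET compounds did to the pathway within 3 h. With BETd-246 most of the 10 genes fell: 7 fell and 1 rose in MDA-MB-157, 6 fell and 1 rose in MDA-MB-231, and all 10 fell in MDA-MB-468. REL, NFKBIE, TNFAIP3, LIF and IL6 fell in all 3 lines, and so did NFKB1, by small amounts that turned under other scalings. The single rises were CXCL8 in MDA-MB-157 and NFKBIA in MDA-MB-231. The median change of the 10 was -0.45, -0.43 and -0.62, beside -0.03, -0.05 and -0.03 over all genes. BETd-246 changed 51.5%, 48.1% and 53.9% of all genes, with 32.4%, 33.3% and 33.7% called lower and 19%, 14.8% and 20.1% higher, so a large part of any list would be called.

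With BETi-211, 5 members fell and 2 rose in MDA-MB-157, 6 fell and 2 rose in MDA-MB-231, and 8 fell and 2 rose in MDA-MB-468. NFKB1, TNFAIP3, LIF and IL6 fell in all 3 lines, and NFKBIE rose in all 3. The median change was -0.19, -0.28 and -0.41, beside -0.03, -0.03 and -0.01 over all genes. Of all genes 45.8%, 50.1% and 53.9% were called, with 30.9%, 31.4% and 32.5% lower and 14.9%, 18.7% and 21.3% higher. Both compounds were set against the same control libraries, so the counts are not independent of each other.

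The scaling of the libraries bears on small changes. Of the called genes, 37.0%, 30.7% and 37.4% were higher with BETd-246 in the values as deposited, and 64.7%, 65.0% and 64.0% after median-of-ratios scaling, which moved the median change of all genes to 0.09, 0.08 and 0.09. Quantile normalization gave 62.0%, 62.1% and 62.3% higher, and scaling to equal column totals 15.8%, 9.88% and 17.9%. For BETi-211 the shares were 32.6%, 37.4% and 39.6% as deposited and 50.5%, 53.6% and 54.4% after median-of-ratios scaling. Small changes of the 10 genes are named below where they turned. Larger ones shrank: with BETd-246 in MDA-MB-468, quantile normalization took REL from -0.71 to -0.36, RELB from -0.50 to -0.19, TNFAIP3 from -0.60 to -0.30 and CXCL8 from -0.65 to -0.33, and in MDA-MB-231 REL from -0.93 to -0.58 and TNFAIP3 from -0.75 to -0.47, all still called. With BETi-211 it took LIF in MDA-MB-157 from -0.33 to -0.19, CXCL8 in MDA-MB-231 from -0.29 to -0.16 and REL in MDA-MB-468 from -0.39 to -0.25, also still called.

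**Figure D2:**
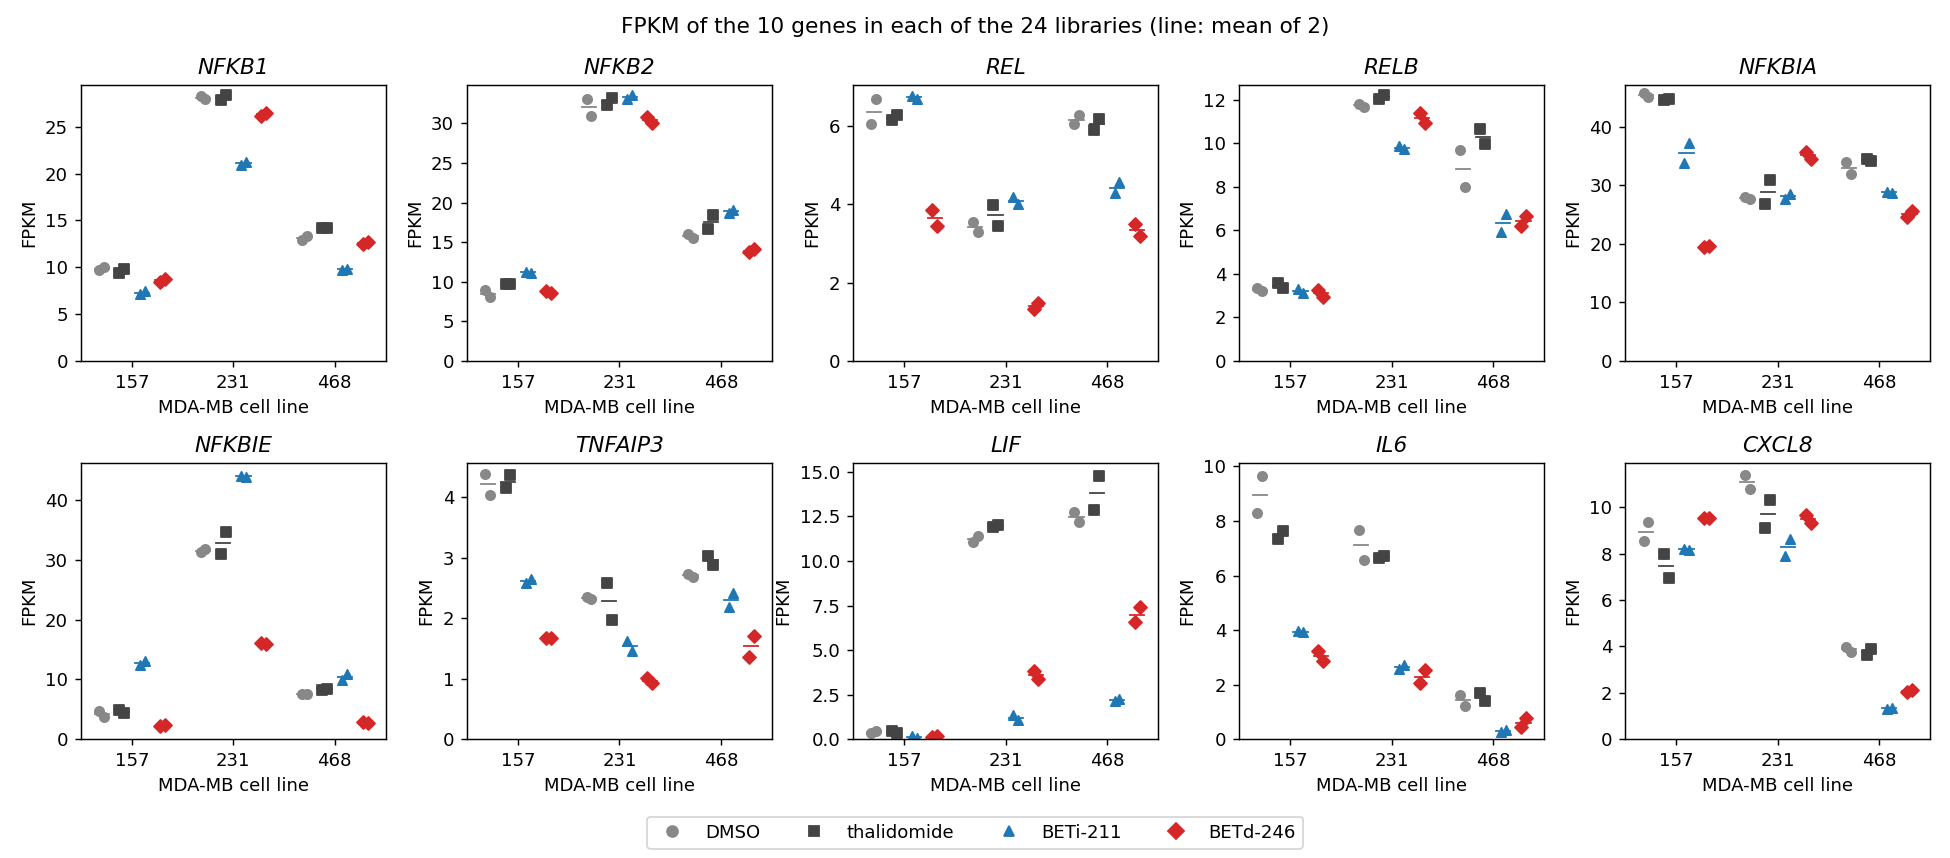
FPKM of each of the 10 genes in the 24 libraries, grouped by line, with DMSO, thalidomide, BETi-211 and BETd-246 from left to right in each line and a line at the mean of 2. NFKBIE shows BETi-211 above and BETd-246 below the controls in every line, LIF is lowest with BETi-211 in both lines that express it well, and NFKBIA with BETd-246 lies below the controls in MDA-MB-157 and above them in MDA-MB-231.

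Among the subunits, REL showed the largest response to BETd-246. With BETi-211 the values of NFKB1 were larger in size than those of REL in every line. REL encodes c-Rel, a subunit with a transactivation domain (chromosome 2, 60881521 to 60931610, forward strand, GRCh38). In MDA-MB-157 its controls held 6.05, 6.15, 6.26 and 6.68 FPKM, the BETi-211 libraries 6.77 and 6.69, and the BETd-246 libraries 3.85 and 3.45. In MDA-MB-231 the controls held 3.29, 3.45, 3.55 and 3.98 FPKM, BETi-211 4.18 and 4.0, and BETd-246 1.32 and 1.48. In MDA-MB-468 the controls held 5.89, 6.03, 6.17 and 6.27 FPKM, BETi-211 4.29 and 4.55, and BETd-246 3.50 and 3.18. All 6 BETd-246 libraries lay below every control of their line, whereas the BETi-211 libraries lay above the controls in the first and second lines and below them in MDA-MB-468.

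REL fell with BETd-246 (-0.65, -0.93 and -0.71, each ± 0.06 SE, adjusted p = 7.31e-08, 7.14e-10 and 1.81e-08), to ratios of mean FPKM of 0.582, 0.392 and 0.549. With BETi-211 REL fell by 0.39 ± 0.06 in MDA-MB-468 (adjusted p = 2.25e-05). Its rise of 0.16 ± 0.06 in MDA-MB-231 (adjusted p = 0.0289) was lost when any of 4 libraries was left out (adjusted p = 0.0679 to 0.174: DMSO replicate 2, thalidomide replicate 2 or either BETi-211 replicate), with thalidomide alone as control (0.177), with column-total scaling (0.245) and with each line fitted alone (0.111). The MDA-MB-157 value was 0.09 ± 0.06 (adjusted p = 0.24), and it was called at 0.20 with quantile normalization (0.00758) and at 0.15 with median-of-ratios scaling (0.0444). Of the 13170 exon bases of REL, 5702 are shared with AC010733.2, a non-coding gene on the same strand. That gene is not among those measured, and its part in the REL values was not tested.

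NFKB1 encodes p105, the precursor of the p50 subunit (chromosome 4, 102501329 to 102617302, forward strand). Its controls held 9.37 to 9.98, 27.8 to 28.4 and 12.9 to 14.2 FPKM. The BETi-211 libraries held 7.14 and 7.43, then 21 and 21.3, then 9.71 and 9.84 FPKM. The BETd-246 libraries held 8.42 and 8.77, then 26.1 and 26.5, then 12.5 and 12.7 FPKM. Both compounds thus left NFKB1 below all controls of the line, with BETi-211 further down. NFKB1 fell with BETi-211 (-0.37, -0.40 and -0.44, each ± 0.03, adjusted p = 3.43e-08, 1.22e-08 and 2.56e-09), to about the same ratio of mean FPKM in each line (0.75, 0.751 and 0.717). With BETd-246 it fell (-0.16, -0.09 and -0.11, adjusted p = 0.000318, 0.0189 and 0.00643), but turned to 0.05 in MDA-MB-157 and 0.08 in MDA-MB-468 with quantile normalization, and to 0.07 in MDA-MB-468 and 0.10 in MDA-MB-231 with median-of-ratios scaling, which left -0.01 in MDA-MB-157. The call in MDA-MB-231 was also lost without either BETd-246 replicate (adjusted p = 0.132 and 0.0612), with quantile normalization (0.353) and with each line fitted alone (0.053). That in MDA-MB-468 was lost without BETd-246 replicate 1 (0.0642) and with DMSO alone as control (0.199).

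NFKB2 encodes p100, the precursor of p52 in the non-canonical pathway (chromosome 10, 102394110 to 102402529, forward strand). In MDA-MB-157 its controls held 8.08, 8.92, 9.71 and 9.75 FPKM, the BETi-211 libraries 11.2 and 11.2, and the BETd-246 libraries 8.86 and 8.61. In MDA-MB-468 they held 15.6, 16.1, 16.7 and 18.4 FPKM, then 18.7 and 19.1, then 13.8 and 14.1. MDA-MB-231 varied little, with controls at 31.0 to 33.2, BETi-211 at 33.1 and 33.6 and BETd-246 at 30.8 and 30.1 FPKM. NFKB2 rose with BETi-211 by 0.27 ± 0.04 in MDA-MB-157 (adjusted p = 4.42e-05) and by 0.17 ± 0.04 in MDA-MB-468 (0.00214), where the call was lost with thalidomide alone as control (0.0947) and with column-total scaling (0.0704). With BETd-246 it fell by 0.24 ± 0.04 in MDA-MB-468 (adjusted p = 0.000141), a call lost with quantile normalization (0.111) and median-of-ratios scaling (0.148). The BETd-246 values of -0.05 and -0.09 in the other two lines were not called, and they took either sign by scaling: after median-of-ratios scaling they were called at 0.09 and 0.11, and after column-total scaling at -0.14 and -0.19 (adjusted p = 0.0121 and 0.00153). In MDA-MB-157 the value was also called with quantile normalization (0.16, adjusted p = 0.00343) and, with thalidomide alone as control, at -0.14 (0.0261). The BETi-211 value in MDA-MB-231 was 0.04 (adjusted p = 0.462), called at 0.12 with median-of-ratios scaling (0.0123).

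RELB encodes the partner of p52 (chromosome 19, 45001430 to 45038198, forward strand). In MDA-MB-468 its controls held 7.99, 9.69, 9.96 and 10.7 FPKM, the BETi-211 libraries 5.91 and 6.75, and the BETd-246 libraries 6.18 and 6.67. MDA-MB-231 controls held 11.7 to 12.2 FPKM, BETi-211 9.85 and 9.72, and BETd-246 11.4 and 10.9. In MDA-MB-157 all 8 libraries lay between 2.94 and 3.56 FPKM. RELB thus responded in MDA-MB-468 to both compounds, and in MDA-MB-157 neither change was called. It fell in MDA-MB-468 with BETi-211 (-0.52 ± 0.06, adjusted p = 2.87e-06) and with BETd-246 (-0.50 ± 0.06, adjusted p = 4.73e-06). In MDA-MB-231 it fell by 0.26 ± 0.06 with BETi-211 (adjusted p = 0.00254), which quantile normalization lost (0.116), and BETd-246 gave -0.09 ± 0.06 (0.271). With column-total scaling the BETd-246 values of MDA-MB-231 (-0.18, adjusted p = 0.0217) and MDA-MB-157 (-0.16, 0.0404) were called.

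Of the inhibitors, NFKBIE rose with the inhibitor and fell with the degrader in all 3 lines, and it is the one gene of the 10 for which all 6 such changes were called. NFKB2 had the same signs, with both changes called in MDA-MB-468 only. NFKBIE encodes IkB-epsilon, which holds NF-kB pairs in the cytoplasm (chromosome 6, 44258166 to 44265788, reverse strand). In MDA-MB-157 its controls held 3.79, 4.39, 4.66 and 4.85 FPKM, the BETi-211 libraries 12.5 and 13.2, and the BETd-246 libraries 2.21 and 2.33. In MDA-MB-231 the controls held 31.0, 31.3, 31.7 and 34.6 FPKM, BETi-211 44.0 and 43.8, and BETd-246 16.2 and 15.9. In MDA-MB-468 the controls held 7.53, 7.63, 8.25 and 8.42 FPKM, BETi-211 9.95 and 10.9, and BETd-246 2.96 and 2.77. The 3 kinds of library did not overlap in any line.

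NFKBIE rose with BETi-211 by 1.35, 0.44 and 0.35 (each ± 0.06, adjusted p = 4.14e-11, 1.4e-05 and 0.000123), ratios of mean FPKM of 2.9, 1.36 and 1.31. It fell with BETd-246 (-0.72, -0.96 and -1.21, each ± 0.06, adjusted p = 4.06e-08, 1.1e-09 and 4.08e-11), ratios of 0.514, 0.499 and 0.36. The line with the largest rise with BETi-211, MDA-MB-157, had the smallest fall with BETd-246. By ratio of mean FPKM this fall lay close to that in MDA-MB-231 (0.514 and 0.499). The added 1 compresses changes more in MDA-MB-157, where control NFKBIE was lower (4.42 against 32.2 FPKM in MDA-MB-231). The difference of the MDA-MB-157 fall from the fall in MDA-MB-231 was not called (0.23, adjusted p = 0.0968). It was called under some alternatives, such as quantile normalization (0.29, 0.0219) and column-total scaling (0.26, 0.0469). None of the 6 called rises and falls was lost or turned under any alternative run.

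NFKBIA encodes IkB-alpha, the rapidly resynthesized inhibitor of the canonical pathway (chromosome 14, 35401511 to 35404749, reverse strand). In MDA-MB-157 its controls held 44.6, 44.8, 45.2 and 45.8 FPKM, the BETi-211 libraries 33.8 and 37.2, and the BETd-246 libraries 19.5 and 19.6. In MDA-MB-231 the controls held 26.8, 27.6, 28.0 and 31.0 FPKM, BETi-211 27.7 and 28.5, and BETd-246 35.8 and 34.5. In MDA-MB-468 the controls held 31.9, 34, 34.1 and 34.5 FPKM, BETi-211 28.9 and 28.7, and BETd-246 24.5 and 25.6. The degrader libraries lay below all controls in the first and last of these lines and above all controls in MDA-MB-231.

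With BETd-246 NFKBIA fell in MDA-MB-157 (-1.17 ± 0.05, adjusted p = 5.46e-12) and in MDA-MB-468 (-0.41 ± 0.05, adjusted p = 2.13e-06), whereas it rose in MDA-MB-231 (0.30 ± 0.05, adjusted p = 7.38e-05). The ratios of mean FPKM were 0.433 and 0.746 for the falls and 1.24 for the rise. Median-of-ratios scaling took the MDA-MB-468 fall to -0.23 and the MDA-MB-231 rise to 0.50, both still called. With BETi-211 it fell in every line but MDA-MB-231 (-0.34 and -0.22, adjusted p = 2.2e-05 and 0.00121). That scaling took the second of these to -0.13, still called. The BETi-211 value in MDA-MB-231 was -0.01, with a 95% interval of -0.11 to 0.09.

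TNFAIP3 encodes A20, a ubiquitin-editing enzyme that ends signalling from TNF receptors (chromosome 6, 137867188 to 137883312, forward strand). In MDA-MB-157 its controls held 4.04, 4.14, 4.36 and 4.39 FPKM, the BETi-211 libraries 2.58 and 2.65, and the BETd-246 libraries 1.67 and 1.68. MDA-MB-231 controls held 1.98, 2.31, 2.34 and 2.58 FPKM, BETi-211 1.62 and 1.46, and BETd-246 1.01 and 0.923. In MDA-MB-468 the controls held 2.69, 2.73, 2.89 and 3.02 FPKM, BETi-211 2.18 and 2.41, and BETd-246 1.36 and 1.71. The order of controls above inhibitor above degrader held in each line without overlap.

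TNFAIP3 fell with BETd-246 (-0.97, -0.75 and -0.60, each ± 0.07, adjusted p = 3.99e-09, 1.02e-07 and 1.27e-06), ratios of mean FPKM of 0.396, 0.419 and 0.542. With BETi-211 it fell (-0.53, -0.38 and -0.22, each ± 0.07, adjusted p = 6.3e-06, 0.000193 and 0.0125). The smallest of these, in MDA-MB-468, was lost with quantile normalization (adjusted p = 0.163), with median-of-ratios scaling (0.0664), with DMSO alone as control (0.0782) and without BETi-211 replicate 1 (0.139). The libraries do not mark the strand, and 95 exon bases of TNFAIP3 are shared with an antisense gene.

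LIF had the largest single fall of the 10 genes, -2.51 with BETi-211 in MDA-MB-231. It encodes leukaemia inhibitory factor, a cytokine of the IL-6 family that signals through LIFR and gp130 (chromosome 22, 30240447 to 30246851, reverse strand). In MDA-MB-231 its controls held 11.1, 11.4, 11.9 and 12 FPKM, the BETi-211 libraries 1.34 and 1.10, and the BETd-246 libraries 3.84 and 3.40. In MDA-MB-468 the controls held 12.2, 12.7, 12.9 and 14.8 FPKM, BETi-211 2.15 and 2.28, and BETd-246 6.58 and 7.40. In MDA-MB-157 the controls held 0.342, 0.353, 0.449 and 0.48 FPKM, BETi-211 0.163 and 0.0746, and BETd-246 0.152 and 0.2. All treated libraries lay below all controls of their line, and in the 2 lines with much LIF the inhibitor libraries were the lowest.

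LIF fell with BETi-211 (-0.33, -2.51 and -2.13, each ± 0.07, adjusted p = 0.000766, 1.12e-13 and 4.24e-13) and with BETd-246 (-0.26, -1.45 and -0.82, adjusted p = 0.00502, 2.54e-11 and 2.81e-08). The ratios of mean FPKM were 0.292, 0.105 and 0.169 with BETi-211 and 0.432, 0.312 and 0.532 with BETd-246. The added 1 thus makes the change in MDA-MB-157 look small, where the level itself was low. The BETd-246 call in MDA-MB-157 was lost with quantile normalization (adjusted p = 0.0633) and without BETd-246 replicate 1 (0.0573). LIF shares 92 exon bases with LIF-AS1 and 175 with a second antisense gene.

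IL6 encodes interleukin-6 (chromosome 7, 22725884 to 22732002, forward strand). In MDA-MB-157 its controls held 7.35, 7.64, 8.28 and 9.64 FPKM, the BETi-211 libraries 3.97 and 3.91, and the BETd-246 libraries 3.23 and 2.86. In MDA-MB-231 the controls held 6.56, 6.66, 6.73 and 7.66 FPKM, BETi-211 2.58 and 2.72, and BETd-246 2.06 and 2.54. In MDA-MB-468 the controls held 1.23, 1.42, 1.63 and 1.70 FPKM, BETi-211 0.277 and 0.336, and BETd-246 0.454 and 0.77. Every treated library lay below every control of its line.

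IL6 fell with BETd-246 (-1.19, -1.26 and -0.63, each ± 0.09, adjusted p = 1.63e-08, 7.3e-09 and 2.38e-05) and with BETi-211 (-0.89, -1.11 and -0.93, adjusted p = 6.32e-07, 4.17e-08 and 2.78e-07). The ratios of mean FPKM were 0.37, 0.333 and 0.409 with BETd-246 and 0.479, 0.384 and 0.205 with BETi-211. All 6 falls held under every alternative run. IL6 shares 46 exon bases with STEAP1B and 428 with an antisense gene on the other strand.

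CXCL8 encodes interleukin-8, a chemokine that attracts neutrophils (chromosome 4, 73740506 to 73743716, forward strand). In MDA-MB-468 its controls held 3.63, 3.75, 3.87 and 3.99 FPKM, the BETi-211 libraries 1.32 and 1.35, and the BETd-246 libraries 2.02 and 2.12. MDA-MB-231 controls held 9.12, 10.3, 10.8 and 11.4 FPKM, BETi-211 7.91 and 8.65, and BETd-246 9.68 and 9.30. In MDA-MB-157 the controls held 6.96, 7.96, 8.55 and 9.36 FPKM, BETi-211 8.20 and 8.17, and BETd-246 9.52 and 9.53. The groups were well apart in MDA-MB-468, and in MDA-MB-157 the inhibitor libraries lay among the controls.

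CXCL8 fell in MDA-MB-468 with BETi-211 (-1.04 ± 0.06, adjusted p = 1.96e-10, ratio of mean FPKM 0.35) and with BETd-246 (-0.65 ± 0.06, adjusted p = 5.94e-08, ratio 0.543). In MDA-MB-231 it fell by 0.29 ± 0.06 with BETi-211 (adjusted p = 0.000392), and BETd-246 gave -0.12 ± 0.06 (0.103). The latter was called with column-total scaling (-0.21, adjusted p = 0.00471), with DMSO alone as control (-0.20, 0.0212) and without thalidomide replicate 1 (-0.16, 0.0296). In MDA-MB-157 BETi-211 gave 0.00 (95% interval -0.12 to 0.12). Its rise of 0.20 ± 0.06 there with BETd-246 (adjusted p = 0.00815) was lost with DMSO alone as control (0.329), with column-total scaling (0.0984) and without BETd-246 replicate 2 (0.0531). It went up to 0.43 with quantile normalization and 0.34 with median-of-ratios scaling, and the DMSO libraries of that line held more CXCL8 than the thalidomide libraries.

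**Figure D3:**
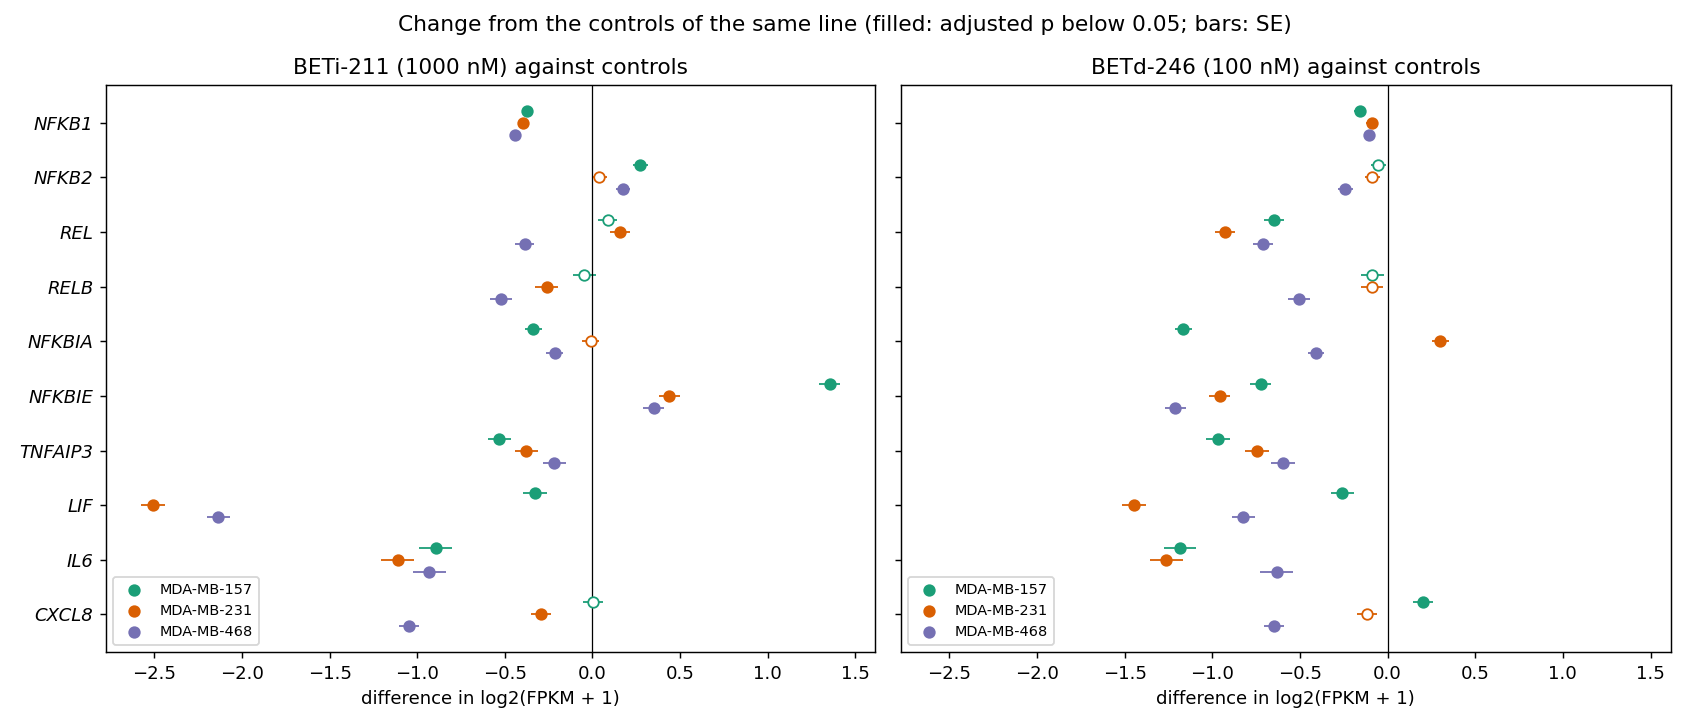
Change in log2(FPKM + 1) from the controls of the same line with BETi-211 (left) and BETd-246 (right), as points with SE bars, filled where the adjusted p is below 0.05. NFKBIE lies right of 0 with BETi-211 (0.35 to 1.35) and left of 0 with BETd-246 (-1.21 to -0.72), LIF reaches -2.51 with BETi-211, and the small NFKB1 and NFKB2 changes with BETd-246 turn sign under some other scalings.

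The exposures were then set against each other in each line. The doses differ (100 nM of BETd-246, 1000 nM of BETi-211), so the test compares these exposures and not the structures. Relative to BETi-211, BETd-246 left less NFKBIE, REL, NFKB2 and TNFAIP3 in all 3 lines and more NFKB1 and CXCL8 in all 3 lines, and more LIF in the 2 lines that express it well. The NFKB2 call in MDA-MB-231 and the CXCL8 calls outside MDA-MB-468 were lost under several alternatives, given below. Called higher and lower were 2 and 6 members in MDA-MB-157, 4 and 4 in MDA-MB-231, and 4 and 5 in MDA-MB-468, where 46.5%, 41.7% and 43.3% of all genes were called (24.2%, 17.8% and 20.1% higher, 22.3%, 23.9% and 23.2% lower). Each line's total of called members was smaller whenever a BETi-211 or BETd-246 library of that line was left out. The tests cover 10 genes in 3 lines, with p adjusted over all genes of a line's comparison.

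NFKBIE differed most between the exposures, by -2.08, -1.40 and -1.56 (each ± 0.07, adjusted p = 7.3e-13, 8.69e-11 and 1.77e-11). REL differed by -0.73, -1.09 and -0.32 (adjusted p = 1.35e-07, 8.4e-10 and 0.000803), the last of which quantile normalization lost (0.161). TNFAIP3 differed by -0.44, -0.37 and -0.38 (each ± 0.08, adjusted p = 0.000265, 0.00107 and 0.000806), the second of which quantile normalization lost (0.0721). These feedback and subunit genes were lower with the degrader. For NFKB2 the differences of -0.33 and -0.41 outside MDA-MB-231 (adjusted p = 4.17e-05 and 2.75e-06) were called, and that of -0.13 in MDA-MB-231 (0.0442) went to -0.01 with median-of-ratios scaling (0.844). It was also lost when any one of its 4 libraries was left out (0.0896 to 0.183), with a pseudocount of 0.1 (0.0509), with each line fitted alone (0.0713) and with no variance trend (0.0517).

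NFKB1 was higher with BETd-246 by 0.21, 0.31 and 0.33 (each ± 0.03, adjusted p = 0.000106, 1.93e-06 and 6.25e-07). LIF was higher by 1.06 and 1.31 (each ± 0.08) in the lines that express it well (adjusted p = 1.19e-08 and 7.27e-10), 2.97 and 3.15 times the FPKM with BETi-211. In MDA-MB-157 the LIF difference was 0.07, with an interval of -0.09 to 0.24, at levels of 0.0746 to 0.2 FPKM. CXCL8 was higher by 0.20, 0.18 and 0.40 (adjusted p = 0.0229, 0.0396 and 0.000124). The first of these was lost when any one of its 4 libraries was left out (0.0762 to 0.0878), and the second without BETi-211 replicate 1 (0.282) or either BETd-246 replicate (0.186 and 0.0724), with a pseudocount of 0.1 (0.0506), with column-total scaling (0.0576) and with each line fitted alone (0.13).

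NFKBIA followed the lines rather than one direction, at -0.83, 0.31 and -0.19 (each ± 0.06, adjusted p = 3.57e-09, 0.000251 and 0.01). The MDA-MB-468 value went to -0.09 with median-of-ratios scaling (adjusted p = 0.158) and was lost without BETi-211 replicate 1 (0.0527) or BETd-246 replicate 1 (0.0848). IL6 gave -0.29 ± 0.11 in MDA-MB-157 and 0.30 ± 0.11 in MDA-MB-468 (adjusted p = 0.0353 and 0.0336), and each was lost when any of 3 of its 4 libraries was left out (0.0969 to 0.207, and 0.074 to 0.343). The first also went to -0.16 with quantile normalization (0.255) and was lost with median-of-ratios scaling (0.0898) and with a pseudocount of 0.1 (0.11), and the second was lost with each line fitted alone (0.0932). RELB was not called in any line, with intervals of -0.20 to 0.11, 0.02 to 0.33 and -0.14 to 0.18 (adjusted p = 0.678, 0.0688 and 0.864), which leaves room for differences up to these bounds. In MDA-MB-231 it was called higher with BETd-246 under quantile normalization (0.24, adjusted p = 0.0199), median-of-ratios scaling (0.28, 0.00551) and with each line fitted alone (0.0271).

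**Figure D4:**
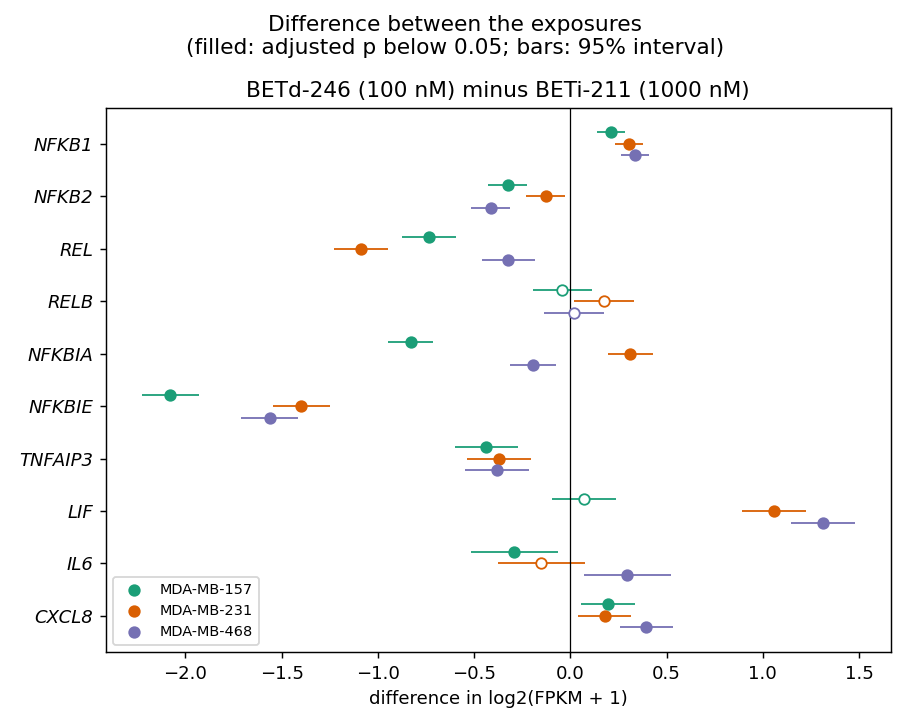
BETd-246 (100 nM) minus BETi-211 (1000 nM) in log2(FPKM + 1) for each gene and line, with 95% intervals and filled points where the adjusted p is below 0.05. NFKBIE is farthest left in every line (-2.08 to -1.40), LIF is farthest right in the lines that express it well (1.06 and 1.31), and all RELB points are open, though the one of MDA-MB-231 was called under quantile normalization and median-of-ratios scaling.

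Whether a compound acted differently between lines was tested as a difference of its changes. For BETd-246, 4 members differed between MDA-MB-157 and MDA-MB-231, 8 differed for MDA-MB-157 against MDA-MB-468, and 5 for MDA-MB-231 against MDA-MB-468, where 11.2%, 13.1% and 13.3% of all genes were called. For BETi-211 the counts were 5, 6 and 5, where 16.5%, 21.6% and 21.9% were called. The shares of the 10 genes lay above the background in all 6 tests, but the 10 were chosen with such results known. NFKBIA differed most with BETd-246 (MDA-MB-157 minus MDA-MB-231: -1.47 ± 0.07, adjusted p = 6.94e-10) and differed in all 3 pairs of lines. CXCL8 differed in all 6 tests, with MDA-MB-468 lowest (MDA-MB-157 minus MDA-MB-468: 0.85 ± 0.08 with BETd-246 and 1.05 ± 0.08 with BETi-211, adjusted p = 1.52e-06 and 1.07e-07). Its differences of MDA-MB-157 from MDA-MB-231 (0.32 and 0.30) were each lost with DMSO alone as control (0.0725 and 0.0719) and without any of 3 libraries (0.0637 to 0.0904, and 0.061 to 0.109). NFKB1 differed in none, with all 6 differences between -0.07 and 0.07.

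The remaining differences were of smaller size or depended on the level. The NFKBIE rise with BETi-211 was larger in MDA-MB-157 than in the other lines by 0.92 ± 0.09 and 1.0 ± 0.09 (adjusted p = 1.18e-06 and 3.29e-07), and the other two lines did not differ beyond the spread (0.09, interval -0.09 to 0.27). The REL change with BETi-211 was higher in MDA-MB-157 and MDA-MB-231 than in MDA-MB-468 by 0.47 and 0.55 (adjusted p = 0.00039 and 0.000102). LIF differed in all 6 tests, but MDA-MB-157 holds little LIF. While the other LIF differences stayed called with a pseudocount of 0.1, the BETd-246 difference of MDA-MB-157 from MDA-MB-468 went from 0.57 to 0.03 (adjusted p = 0.971). IL6 fell less far in MDA-MB-468 with BETd-246, and the differences of MDA-MB-157 and of MDA-MB-231 from it, -0.55 and -0.63, likewise went to -0.21 and -0.36 and were not called with that pseudocount (adjusted p = 0.703 and 0.358). The first was also lost with thalidomide alone as control (0.119) and without BETd-246 replicate 2 of either line (0.0614 and 0.0787). With BETi-211 the IL6 difference of MDA-MB-157 from MDA-MB-468 was 0.03 and not called (adjusted p = 0.895). It was called at 0.93 with a pseudocount of 0.1 (0.00659), so this comparison also depends on the added value.

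Beyond the 10 genes, the pathway was read from lists of its other parts. Of 25 measured kinases and adaptors that signal to NF-kB, 12, 13 and 12 fell and 4, 2 and 4 rose with BETd-246, and 15, 15 and 13 fell and 2, 2 and 3 rose with BETi-211. The list does not separate genes that activate the pathway from genes that restrain it. The list's median change was -0.15, -0.15 and -0.12 with BETd-246 and -0.19, -0.31 and -0.22 with BETi-211, beside the medians of all genes given above. So 48% to 52% fell with BETd-246 and 52% to 60% with BETi-211, where 32.4% to 33.7% and 30.9% to 32.5% of all genes were called lower, and 8% to 16% rose with either, where 14.8% to 20.1% and 14.9% to 21.3% of all genes were called higher. TRAF6, the ubiquitin ligase of the TLR and IL-1 receptor branch, fell from 5.02 ± 0.13 to 1.32 ± 0.01, from 5.86 ± 0.23 to 1.27 ± 0.01 and from 12.7 ± 0.21 to 2.81 ± 0.02 FPKM with BETd-246 (-1.38, -1.60 and -1.85) and less far with BETi-211 (-0.12, -0.36 and -0.85). MAP3K14, the NIK kinase of the non-canonical branch, fell with BETd-246 (-1.09, -1.33 and -0.81) and, in the first and second lines, with BETi-211 (-0.20 and -0.38). TRAF2, an adaptor of TNF receptors, fell with both compounds (-0.60, -0.99 and -0.95 with BETd-246, -0.72, -1.19 and -1.03 with BETi-211).

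Of 8 measured receptors upstream of NF-kB among 11 listed, 3, 4 and 4 fell and 0, 1 and 0 rose with BETd-246, and 4, 4 and 4 fell and 2, 2 and 3 rose with BETi-211 (medians -0.07, -0.10 and -0.13, then -0.15, -0.03 and -0.20). With so few genes, the 37.5% to 50% that fell are not far from the 32.4% to 33.7% (BETd-246) and 30.9% to 32.5% (BETi-211) of all genes. The shares that rose were 0% to 12.5% with BETd-246 and 25% to 37.5% with BETi-211. Of all genes, 14.8% to 20.1% and 14.9% to 21.3% were called higher. TNFRSF1A, the main TNF receptor, fell with BETd-246 (-0.59, -0.76 and -1.04) and with BETi-211 (-1.13, -1.10 and -1.18). TNFRSF12A, the TWEAK receptor and the most abundant of these (125 ± 7.34, 138 ± 13.7 and 162 ± 11.3 FPKM in controls), fell with BETd-246 (-0.50, -0.42 and -0.89). With BETi-211 TNFRSF12A fell in MDA-MB-468 (-0.46) and was not called in the other lines (-0.08 and 0.06). TNFRSF1B, the second TNF receptor, fell with BETd-246 in the first and second lines (-0.36 and -0.13) and was at 0.109 ± 0.03 FPKM in controls of MDA-MB-468. With BETi-211 it fell in the first and second lines (-0.23 and -0.12). In MDA-MB-468 it was called higher (0.13, adjusted p = 0.0357), at a mean of only 0.211 FPKM.

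Of 14 other subunit, IkB family and feedback genes, all measured, 8, 8 and 9 fell and 0, 0 and 3 rose with BETd-246, and 6, 6 and 8 fell and 3, 3 and 2 rose with BETi-211 (medians -0.25, -0.21 and -0.34, then -0.07, -0.09 and -0.13). The shares that fell were 57.1% to 64.3% with BETd-246, where 32.4% to 33.7% of all genes did, and 42.9% to 57.1% with BETi-211, where 30.9% to 32.5% did. Those that rose were 0% to 21.4% and 14.3% to 21.4%, where 14.8% to 20.1% and 14.9% to 21.3% of all genes did. BCL3, an IkB protein that acts in the nucleus, fell with both compounds (-0.75, -0.99 and -1.57 with BETd-246, -0.72, -1.05 and -1.97 with BETi-211). PELI1, a ubiquitin ligase of this pathway, moved as NFKBIE did: it fell with BETd-246 (-1.01, -0.81 and -1.14) and rose by 0.94, 1.56 and 0.56 with BETi-211. In MDA-MB-231 PELI1 went from 3.42 ± 0.11 FPKM in controls to 1.53 ± 0.19 with BETd-246 and 12 ± 0.06 with BETi-211. NFKBIZ, a nuclear IkB protein needed for IL6 induction, fell with BETd-246 (-1.16, -0.51 and -1.07), rose by 0.29 and 0.71 with BETi-211 in the first and second lines and fell by 0.23 in MDA-MB-468.

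Of 16 measured cytokine and target genes among 26 listed, 9, 6 and 7 fell and 3, 2 and 2 rose with BETd-246, and 10, 5 and 8 fell and 2, 5 and 2 rose with BETi-211 (medians -0.13, -0.10 and -0.14, then -0.24, 0.00 and -0.21). The shares that fell were 56.2%, 37.5% and 43.8% with BETd-246 and 62.5%, 31.2% and 50% with BETi-211, where 32.4%, 33.3% and 33.7%, and 30.9%, 31.4% and 32.5% of all genes did, so those of MDA-MB-231 lie near the background. Those that rose were 12.5% to 18.8% with BETd-246 and 12.5% to 31.2% with BETi-211, where 14.8% to 20.1% and 14.9% to 21.3% of all genes did. TNF, IL1A, IL1B, CSF2, CSF3, CXCL3, CXCL10, CCL20, VCAM1 and PTGS2 are not in the table. IER3, an early response gene, fell with BETd-246 (-1.87, -0.99 and -2.06), while BETi-211 lowered it outside MDA-MB-231 (-0.30 and -0.98) and raised it in MDA-MB-231 (0.32). CSF1, the growth factor of macrophages, fell with BETd-246 (-1.26, -0.79 and -1.24) and with BETi-211 (-1.01, -1.39 and -1.33). PLAU, which encodes urokinase, fell with BETd-246 (-0.44, -0.69 and -1.24) and with BETi-211 (-0.96, -1.74 and -1.95). Of the receptors of the member cytokines, 3 of 5 were measured, of which 2, 1 and 1 fell with BETd-246. With BETi-211, 1, 1 and 1 fell and 0, 1 and 0 rose. LIFR stood at 30.9 ± 1.86, 14.7 ± 0.38 and 10.2 ± 0.27 FPKM in controls and rose by 0.56 ± 0.04 with BETi-211 in MDA-MB-231 (adjusted p = 3.84e-09). It was not called with BETi-211 in MDA-MB-157 (0.07, adjusted p = 0.144) or in MDA-MB-468 (0.02, 0.628). With BETd-246 LIFR was called in MDA-MB-157 only (-0.16).

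For each of the 10 genes, the 2 genes most like it were found by Pearson's r of the 12 group means of log2(FPKM + 1), among 11481 other genes of at least 5 FPKM in a group (11482 for TNFAIP3). The points share libraries and lines, and such an r mostly follows the differences between the lines, so it is given as a description. The nearest were TSR1 and BCL2L1 for NFKB1 (0.996 each), SLC7A5 (0.994) and TBRG1 (0.993) for NFKB2, RBAK (0.961) and ZNF44 (0.958) for REL, and AMOTL1 (0.993) and TSPAN14 (0.991) for RELB. For the feedback genes they were PPAT (0.980) and HGH1 (0.968) for NFKBIE, and GRPEL2 (0.980) and BRF2 (0.977) for TNFAIP3. NFKBIA had the loosest matches, CEBPZ at 0.783 and ZNF700 at 0.734. For the cytokines they were ARHGAP29 (0.983) and HIVEP2 (0.972) for LIF, NCBP3 (0.977) and NFX1 (0.976) for IL6, and PIP4K2B (0.978) and ENTPD6 (0.974) for CXCL8.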

How the data were processed

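The authors deposited 1 table of FPKM values for 14114 genes in 24 libraries. No header names this unit. It was read from the values: no column is of whole numbers, and the smallest nonzero value, in 745 genes with a 0 in some library, went down as transcripts got longer (rho -0.69 over genes, Spearman). Depth is therefore known only roughly, and no counts or counting intervals were used. The submitters' processing notes name Bowtie 0.12.8, bcl2fastq 2.17.1.14 and build GRCh38.p5. How FPKM was computed, and which genes were kept, is not given in the sources used here. Per the labels' protocols, ribosomal RNA was depleted and TruSeq v2 libraries were made with random primers, which does not mark the strand.

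Values were fitted as log2(FPKM + 1) in limma 3.58.1 (R 4.3.3), with 1 coefficient for each of 12 groups, a variance trend, no robust step and no replicate block (12 residual and 3.32 prior degrees of freedom). Tests are two-sided, with Benjamini-Hochberg adjustment over 14114 genes and a threshold of 0.05. Each compound was set against the average of both control coefficients of its line. No count test was run, since the table holds no counts. Nothing in the labels says that the replicates came from separate cultures, so p-values measure only the spread between these libraries, which may be technical. The fit was also run on simulated data with independent normal noise and changes set in a single group. Those data held no shift of scaling between libraries, so the run does not bear on the effect of scaling. Gene coordinates are from GENCODE version 29, in which 13951 of the identifiers were found, and promoters from RefSeq.

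The 10 genes and the pathway lists were chosen with earlier results of these data known. All 10 are named, and from each list up to 3 genes called with BETd-246 in at least 1 line, with at least 5 FPKM in a group and the largest mean change with BETd-246. Alternatives were another pseudocount, a filter, 3 scalings, either control alone, each line alone, no trend, a replicate block and leaving out each library.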

Additional observations from a re-analysis of the deposited data

Results flagged for a closer look

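In the 4 control libraries of MDA-MB-231, IL6 was at 7.664 FPKM in DMSO replicate 1 and at 6.56 to 6.73 FPKM in the others, a gap beyond Dixon's 95% critical value for 4 values. It was the single such library in 30 groups of 4 tested, and chance flags about 1 in 20 groups.

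The other flags are compound effects that differed between lines by limma's test of the difference (adjusted p below 0.05, change in log2(FPKM + 1)). For BETd-246, MDA-MB-157 minus MDA-MB-231, the differences were 0.28 for REL, -1.47 for NFKBIA, 1.19 for LIF and 0.32 for CXCL8. MDA-MB-157 minus MDA-MB-468 gave 0.19 for NFKB2, 0.42 for RELB, -0.76 for NFKBIA, 0.49 for NFKBIE, -0.37 for TNFAIP3, 0.57 for LIF, -0.55 for IL6 and 0.85 for CXCL8. MDA-MB-231 minus MDA-MB-468 gave 0.42 for RELB, 0.71 for NFKBIA, -0.63 for LIF, -0.63 for IL6 and 0.53 for CXCL8.

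For BETi-211, MDA-MB-157 minus MDA-MB-231, the differences were 0.23 for NFKB2, -0.33 for NFKBIA, 0.92 for NFKBIE, 2.18 for LIF and 0.30 for CXCL8. MDA-MB-157 minus MDA-MB-468 gave 0.47 for REL, 0.48 for RELB, 1.0 for NFKBIE, -0.31 for TNFAIP3, 1.80 for LIF and 1.05 for CXCL8. MDA-MB-231 minus MDA-MB-468 gave 0.55 for REL, 0.26 for RELB, 0.20 for NFKBIA, -0.37 for LIF and 0.75 for CXCL8.

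Several of these calls were lost under alternatives, the replicate block and each left-out library counted. For BETd-246 the NFKB2 difference of MDA-MB-157 from MDA-MB-468 (adjusted p = 0.0465) was lost under 16 (0.0552 to 0.175) and the REL difference of MDA-MB-157 from MDA-MB-231 (0.0325) under 10 (0.0505 to 0.327), while TNFAIP3 in the former pair was lost under 5 (0.0563 to 0.122). For BETi-211 the MDA-MB-231 minus MDA-MB-468 differences of RELB (adjusted p = 0.0478) and NFKBIA (0.0407) were lost under 13 (0.0564 to 0.267) and 12 (0.0541 to 0.146), and that of LIF without BETi-211 replicate 2 of either line (0.0539 and 0.0758). The TNFAIP3 difference of MDA-MB-157 from MDA-MB-468 was lost under 8 (0.051 to 0.133), and the NFKB2 difference of MDA-MB-157 from MDA-MB-231 with thalidomide alone as control (0.149) and without MDA-MB-231 BETi-211 replicate 1 (0.0517).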

How the results depend on the processing

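Of 3429 checks of a single gene, contrast and alternative, 3223 kept direction and side of the threshold, 162 lost the call, 36 gained one and 8 reversed. The reversed values were with quantile normalization 0.045 (NFKB1) and 0.16 (NFKB2) for BETd-246 in MDA-MB-157, 0.0816 (NFKB1) in MDA-MB-468 and 0.0369 for TNFAIP3 between the controls of MDA-MB-231 and MDA-MB-468. With median-of-ratios scaling they were 0.0913 (NFKB2) in MDA-MB-157, 0.10 (NFKB1) and 0.11 (NFKB2) in MDA-MB-231 and 0.0687 (NFKB1) in MDA-MB-468, all for BETd-246. The cause was not tested.

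Counts of called members moved as follows. Thalidomide against DMSO in MDA-MB-157 gave 1 with quantile normalization against 0. The BETd-246 effect between MDA-MB-157 and MDA-MB-231 gave 2 with DMSO alone as control against 4, and between MDA-MB-157 and MDA-MB-468 it gave 4 with a pseudocount of 0.1 and 5 with thalidomide alone as control against 8. The BETi-211 effect between MDA-MB-231 and MDA-MB-468 gave 3 with DMSO alone as control against 5. With the replicate number as a block it also gave 3. The block ended the IL6 difference of the exposures in MDA-MB-157 (adjusted p = 0.0597), that in MDA-MB-468 (0.0585) and that of CXCL8 in MDA-MB-231 (0.0611). It also ended the control differences of IL6 between MDA-MB-157 and MDA-MB-231 (0.0623) and, for MDA-MB-231 against MDA-MB-468, of TNFAIP3 (0.0581) and LIF (0.212). Between lines it ended the BETd-246 effect differences of REL (MDA-MB-157 against MDA-MB-231, 0.0542) and NFKB2 (MDA-MB-157 against MDA-MB-468, 0.0563), and the BETi-211 ones of RELB (0.0615) and NFKBIA (0.0562) for MDA-MB-231 against MDA-MB-468, 10 calls in all. Same-numbered libraries did not deviate together throughout (18 pairs of groups, correlations of -0.207 to 0.335, 6 over 0.1), although in MDA-MB-468 all 3 pairs among DMSO, thalidomide and BETd-246 were over 0.1 (0.175 to 0.335), so the numbers were not taken to pair the samples.

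Leaving out 1 library gave 0 to 2 (MDA-MB-157) and 0 to 1 (MDA-MB-231) called members for thalidomide. For differences between lines it gave, with BETd-246, 2 to 6 (MDA-MB-157 and MDA-MB-231, lowest without MDA-MB-157 BETd-246 replicate 1) and 5 to 8 (MDA-MB-157 and MDA-MB-468, lowest without BETd-246 replicate 2 of either line). With BETi-211 it gave 3 to 5 (MDA-MB-157 and MDA-MB-231, lowest without MDA-MB-231 BETi-211 replicate 1) and 2 to 6 (MDA-MB-231 and MDA-MB-468, lowest without MDA-MB-231 BETi-211 replicate 2, and 3 without any of 7 other libraries). With 2 libraries a group, a group left with 1 library is assumed to vary like the others. The filter of 5 FPKM leaves out TNFAIP3. Depth is known only roughly, so the values below 0.5 FPKM carry an unknown counting error. These are LIF in MDA-MB-157 and IL6 in treated MDA-MB-468, except IL6 in BETd-246 replicate 2 of that line (0.77 FPKM).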
